A study of Mus musculus with 8 samples.

Results

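The enzymes that regenerate NADPH were described through 8 genes, chosen by name for their place in the 4 classical routes of NADPH supply. *G6pdx*, *Pgd*, *Taldo1* and *Tkt* encode enzymes of the pentose phosphate pathway, *Me1* encodes cytosolic malic enzyme, *Idh1* and *Idh2* encode the NADP-dependent isocitrate dehydrogenases of the cytosol and mitochondria, and *Nnt* encodes the mitochondrial transhydrogenase. These are 8 of the 32390 rows of the count table, and 7 of the 12725 rows that held enough counts to be tested. The exception was *Nnt*, whose counts were too low. Where a name stood on more than 1 row, the row with most counts was taken.

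The samples were gastrocnemius muscles of 4 control mice (*Nox4* fl/fl) and of 4 NOX4-deficient mice (*Mck*-Cre;*Nox4* fl/fl), 21 months old by the labels. The mice were male and fed standard chow by the study's description of these samples, and on C57BL/6 background by its methods. Both groups carry the floxed *Nox4* alleles, and the controls have no Cre. The *Mck* promoter that drives Cre is that of a creatine kinase gene of striated muscle, heart included, so fibroblasts, endothelial cells, leukocytes and nerve in the tissue keep an intact *Nox4*. The libraries were made from poly(A) RNA without strand information, all labelled as batch 1, and held between 16350548 and 19804661 counts.

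NADPH carries the electrons that reduce glutathione and thioredoxin, build fatty acids and sterols, and feed NADPH oxidases such as NOX4 itself. Cells make it from NADP+ when glucose 6-phosphate, 6-phosphogluconate, malate or isocitrate is oxidized, while transaldolase and transketolase return the pentose sugars to glycolysis. Skeletal muscle has little oxidative pentose phosphate activity at rest, and its mitochondria make NADPH by isocitrate dehydrogenase and the transhydrogenase. *G6pdx*, *Pgd*, *Taldo1*, *Tkt*, *Me1* and *Idh1* are known in other tissues as targets of NFE2L2, the factor that binds antioxidant response elements together with small MAF proteins and in competition with BACH1.

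The antioxidant response element was therefore looked for as the letters TGACNNNGC, on both strands, in the windows from 250 bases before to 50 bases after the annotated start sites in RefSeq (GRCm38.p6). A window was found for 7 of the 8 genes, 10 windows in all, and none for *Nnt*. The letters occurred in 3 of the 10 windows, 1 each of *Me1*, *G6pdx* and *Pgd*, against 12.4% of 32851 windows of all genes. The 3 windows are printed because they are the ones that hold the letters, which stand in capitals. They are chr9:86695865-86696164 for *Me1*, chrX:74428831-74429130 for *G6pdx* and chr4:149166033-149166332 for the second start of *Pgd*, all on the minus strand and written 5′ to 3′.
Me1: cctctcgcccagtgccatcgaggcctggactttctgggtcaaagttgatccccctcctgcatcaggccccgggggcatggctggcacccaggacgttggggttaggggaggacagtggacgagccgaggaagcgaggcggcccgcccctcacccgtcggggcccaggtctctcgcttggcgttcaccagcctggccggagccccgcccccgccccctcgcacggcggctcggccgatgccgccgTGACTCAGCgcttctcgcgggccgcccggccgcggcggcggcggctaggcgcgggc
G6pdx: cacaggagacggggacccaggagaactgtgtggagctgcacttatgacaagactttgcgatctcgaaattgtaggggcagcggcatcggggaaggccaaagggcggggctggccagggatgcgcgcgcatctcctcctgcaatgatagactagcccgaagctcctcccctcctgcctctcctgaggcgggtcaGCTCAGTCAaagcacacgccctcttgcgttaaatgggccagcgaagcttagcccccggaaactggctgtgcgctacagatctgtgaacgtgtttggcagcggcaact
Pgd: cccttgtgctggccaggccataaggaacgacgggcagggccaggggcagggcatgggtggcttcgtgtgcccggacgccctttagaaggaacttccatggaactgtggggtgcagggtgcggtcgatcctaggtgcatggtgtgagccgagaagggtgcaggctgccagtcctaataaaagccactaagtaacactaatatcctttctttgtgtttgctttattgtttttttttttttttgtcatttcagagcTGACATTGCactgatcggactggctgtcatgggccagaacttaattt

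In *Me1* the match TGACTCAGC runs from position -6 to position 3, across the start site. In *G6pdx* the letters are read on the other strand, as GCTCAGTCA in the printed orientation, at -57 to -49. In *Pgd* the match TGACATTGC lies at 4 to 12, after the second annotated start and so in transcribed sequence. The letters just before this start, a run of T closed by cag, look like the end of an intron. The match may thus lie in an internal exon and not in a promoter, which was not tested. A match of letters is not a bound site, and a window without a match says nothing of sequence outside its 300 bases. The sterol regulatory element TCACNCCAC and the E-box CACGTG were in 0 of the 10 windows, against 1.24% and 7.15% of all windows.

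The table of counts was checked on the deleted gene and on the tissue first. *Nox4* lay at 5.09, 2.47, 1.87 and 3.64 CPM (counts relative to the TMM-scaled library size) in control replicates 1 to 4 and at 1.74, 2.17, 2.21 and 2.17 CPM in NOX4-deficient replicates 1 to 4. The groups overlapped, since only control replicates 1, 2 and 4 lay above every NOX4-deficient library. Its log2 fold change of -0.65 had a standard error of 0.29 and an edgeR adjusted p of 0.207. Permuting the CPM values over the mice (exact test, two-sided) gave p = 0.2, and 4 mice against 4 can give no p below 0.0286. Counts are over the whole gene, so exons outside the deleted part and cells without Cre can add to them. Their part in the *Nox4* values was not tested. *Myh4*, the myosin of fast muscle fibers, was at 48430 ± 4959 CPM in control libraries and 51588 ± 4897 CPM in NOX4-deficient ones (SD, n = 4 each).

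Over all rows tested, 6.16% were called between the genotypes, 3.48% lower and 2.68% higher in NOX4-deficient muscle (edgeR's quasi-likelihood test, Benjamini-Hochberg adjusted p under 0.05 with a log2 fold change beyond 0.5 in size) and 7.75% had an adjusted p under 0.05 at any fold. Of the 7 NADPH supply genes tested, 0 were called and 0 had an adjusted p under 0.05. At an unadjusted p under 0.05 there were 3 of the 7, *Pgd* at lower level and *Me1* and *Idh1* at higher level in NOX4-deficient muscle, where the share over all rows was 23.2% (12.5% lower and 10.7% higher). DESeq2 and pydeseq2, fitted to the same counts, each gave 1 member with an adjusted p under 0.05, *Me1*. The log2 fold changes were negative in 3 members and positive in 4, with a median of 0.13 beside 0.01 over all rows tested. In bulk muscle, fewer cells of a type and less RNA per cell cannot be told apart, and the p-values measure only the spread between these mice.

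**Figure D1:**
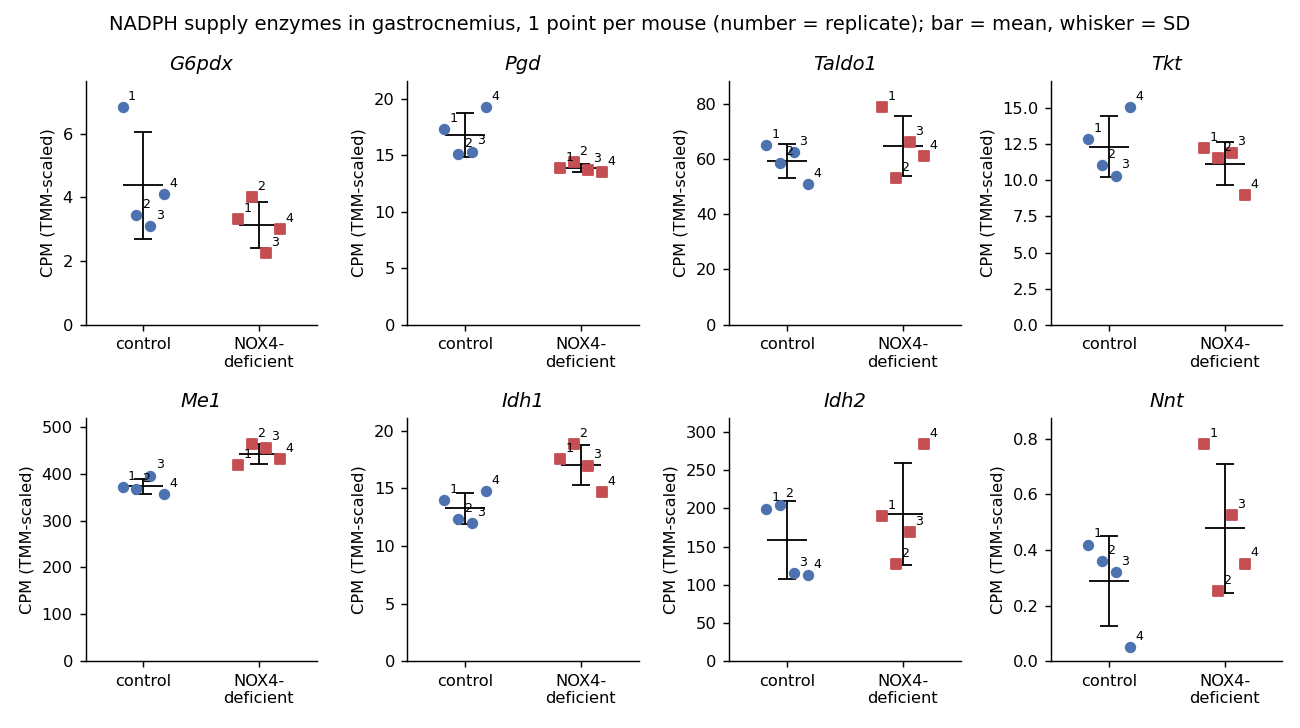
CPM of each of the 8 genes (vertical axes, TMM-scaled, each from 0) in 4 control (blue circles) and 4 NOX4-deficient libraries (red squares), numbered by replicate, with the mean as a bar and the SD as a whisker. The groups stand apart in *Me1* (control 356 to 396, NOX4-deficient 417 to 463) and *Pgd* (control 15.1 to 19.2, NOX4-deficient 13.5 to 14.4), and overlap in the other 6 genes.

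**Figure D2:**
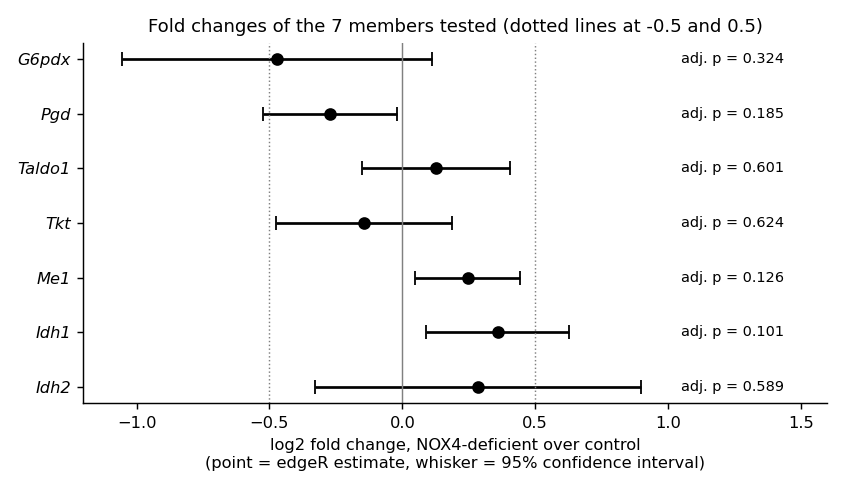
Log2 fold change of NOX4-deficient over control muscle (horizontal axis) for the 7 genes tested, with the edgeR estimate as a point and its 95% confidence interval as a whisker. The intervals of *Pgd* (-0.53 to -0.02), *Me1* (0.05 to 0.44) and *Idh1* (0.09 to 0.63) leave out 0, and none of the adjusted p-values printed at the right is under 0.05.

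The pentose phosphate pathway begins with the oxidative steps, each of which makes NADPH. *G6pdx* encodes glucose 6-phosphate dehydrogenase, which commits glucose 6-phosphate to the pathway. It had 114, 67, 58 and 79 counts in control replicates 1 to 4, or 6.83, 3.45, 3.104 and 4.11 CPM. In NOX4-deficient replicates 1 to 4 the counts were 55, 79, 43 and 51, or 3.31, 4.00, 2.26 and 2.99 CPM. Control replicate 1 lay above all other libraries, and the remaining libraries of both genotypes overlapped. The means were 4.37 ± 1.69 CPM and 3.14 ± 0.720 CPM (SD, n = 4 each), and the log2 fold change was -0.47 (standard error 0.27, 95% interval -1.05 to 0.11, edgeR adjusted p = 0.324). Without control replicate 1 it was -0.18. The interval spans levels from 0.481 to 1.08 times the control, so a difference in this gene could not be told from none at this depth and spread.

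The same library of control replicate 1 was also highest in leukocyte markers. The 6 leukocyte genes looked at (*Ptprc*, *Cd68*, *Adgre1*, *Csf1r*, *Lyz2* and *Cd3e*) summed to 68.7 CPM there, to 27.9 to 39.2 CPM in the other controls and to 17.2 to 36.7 CPM in NOX4-deficient muscle. The log2 fold changes were negative in 5 of the 6 (median -0.58), and 0 had an adjusted p under 0.05 by edgeR, 2 at an unadjusted p under 0.05. *Lyz2*, the lysozyme of macrophages, was the most abundant at 28.7 ± 12.8 and 17.7 ± 7.65 CPM (SD, n = 4 each), and none of the 6 was at 0. Other libraries went the other way. NOX4-deficient replicate 3 had 34.6 CPM of the markers and the lowest *G6pdx* (2.26 CPM). NOX4-deficient replicate 2 had 24.8 CPM of the markers, less than every control, and more *G6pdx* (4.00 CPM) than control replicates 2 and 3. The part of leukocytes in the *G6pdx* values was not tested. On the GENCODE M21 annotation (GRCm38), 13.6% of the exon bases of *G6pdx* are shared with *Ikbkg* on the opposite strand, and unstranded reads there cannot be assigned to one gene. *Ikbkg*, which encodes a subunit of the NF-kappaB kinase complex, had 23.5 ± 1.93 CPM in controls against 24.4 ± 4.53 CPM (SD, n = 4 each, log2 fold change 0.06, adjusted p = 0.852). The retrogene copy *G6pd2* had 0 counts in all 8 libraries.

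*Pgd* encodes 6-phosphogluconate dehydrogenase, which makes the pathway's other NADPH and releases ribulose 5-phosphate. It was at 17.3, 15.1, 15.3 and 19.2 CPM in control replicates 1 to 4 and at 13.8, 14.4, 13.7 and 13.5 CPM in NOX4-deficient replicates 1 to 4. All 4 NOX4-deficient libraries lay below all controls, without overlap, as in 8.97% of all rows tested in this direction. The means were 16.7 ± 1.95 CPM and 13.9 ± 0.371 CPM (SD, n = 4 each), a ratio of 0.828. The log2 fold change was -0.27 (standard error 0.12, 95% interval -0.53 to -0.02). Its edgeR adjusted p was 0.185, from 0.0371 before adjustment. It did not pass the test, and without control replicate 4, the highest library, it was -0.20 with an adjusted p of 0.406, the highest of 17 alternatives that ranged down to 0.179. The spread of *Pgd* was 11.6% of the mean over controls and 2.68% over NOX4-deficient mice, the smallest of the 8 genes.

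Added per kilobase of transcript, *G6pdx* and *Pgd*, the NADPH-forming pair of the pathway, came to 10.4, 8.10, 8.07 and 10.2 CPM per kb in controls and 7.49, 7.98, 7.04 and 7.21 CPM per kb in NOX4-deficient muscle. The groups did not overlap, by a margin of 8.07 against 7.98, and since most of this sum is *Pgd* it adds little to the values of that gene.

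The non-oxidative steps move carbon between sugars and make no NADPH. *Taldo1* encodes transaldolase, and was at 64.9, 58.7, 62.4 and 50.8 CPM in control and at 78.7, 53.1, 66.0 and 61.0 CPM in NOX4-deficient replicates 1 to 4. NOX4-deficient replicate 1 was the highest library and control replicate 4 the lowest, with the others interleaved. The log2 fold change was 0.13 (standard error 0.13, 95% interval -0.15 to 0.41, edgeR adjusted p = 0.601), and 0.03 without NOX4-deficient replicate 1. *Tkt* encodes transketolase, which needs thiamine and links the pathway to glycolysis. It was at 12.9, 11.1, 10.3 and 15.1 CPM in control and at 12.2, 11.5, 11.9 and 8.97 CPM in NOX4-deficient replicates 1 to 4. Control replicate 4 was highest and NOX4-deficient replicate 4 lowest, and the other 6 libraries lay between 10.3 and 12.9 CPM. The log2 fold change was -0.14 (standard error 0.15, 95% interval -0.48 to 0.19, edgeR adjusted p = 0.624), and -0.03 without control replicate 4.

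The related enzymes *Tktl1* and *Tktl2* had 0 counts in all libraries. In a list of 14 other pentose phosphate genes, 11 were tested, with 3 negative and 8 positive log2 fold changes and a median of 0.13. None had an adjusted p under 0.05 by edgeR, and 2 had an unadjusted p under 0.05. The smallest p was that of *H6pd*, the hexose 6-phosphate dehydrogenase of the endoplasmic reticulum, with 71.2 ± 12.2 CPM in controls against 57.1 ± 6.72 CPM (SD, n = 4 each). Its log2 fold change was -0.32 (adjusted p = 0.187).

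*Me1* encodes the cytosolic malic enzyme, which makes NADPH as it turns malate into pyruvate. It had 6196, 7132, 7395 and 6852 counts in control replicates 1 to 4, or 371, 367, 396 and 356 CPM. In NOX4-deficient replicates 1 to 4 the counts were 6939, 9161, 8663 and 7345, or 417, 463, 455 and 431 CPM. All 4 NOX4-deficient libraries lay above all controls, without overlap, as in 7.2% of all rows tested in this direction. The means were 373 ± 16.7 CPM and 442 ± 21.3 CPM (SD, n = 4 each), a ratio of 1.19. The log2 fold change was 0.25 (standard error 0.09, 95% interval 0.05 to 0.44). Its edgeR adjusted p was 0.126, from 0.0188 before adjustment. DESeq2 gave 0.24 with an adjusted p of 0.0277 and pydeseq2 0.24 with 0.0317, so the call of this gene at any fold depended on the tool, and its fold was under the threshold of 0.5 in each. Over all 17 alternatives its adjusted p lay between 0.0277 and 0.275. Leaving out any 1 library kept its log2 fold change between 0.22 and 0.29.

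*Me1* is also abundant in adipocytes. Of 7 adipocyte markers, *Fabp4* and *Cfd* were set aside as having other sources in muscle. They are the 2 with negative log2 fold changes (-0.15 and -0.69), so the choice matters. The ratio of NOX4-deficient to control means is 0.949 for all 7 and 1.73 for the remaining 5. These 5 (*Adipoq*, *Plin1*, *Cidec*, *Lep* and *Retn*) summed to 39.6, 15.2, 7.38 and 10.8 CPM in control and 25.4, 66.1, 16.6 and 17.8 CPM in NOX4-deficient replicates 1 to 4. NOX4-deficient replicate 2 was highest in both the markers and *Me1*, and without it the *Me1* log2 fold change was 0.22. Control replicates 2 to 4 had fewer of these markers and less *Me1* than every NOX4-deficient library, and control replicate 1 had more of the markers than 3 of them and less *Me1*. The part of adipocytes in the *Me1* values was not tested. The 7 markers together summed to 163 to 299 CPM in control and 160 to 210 CPM in NOX4-deficient muscle, 5 of 7 had positive log2 fold changes (median 0.32), and 0 of 7 had an adjusted p under 0.05 by edgeR, nor an unadjusted one. *Fabp4*, the most abundant, was at 167 ± 34.9 and 150 ± 24.9 CPM (SD, n = 4 each), and none was at 0. The antisense gene *A330041J22Rik* shares 30 exon bases with *Me1*, or 0.78% of its exon bases, and averaged 0.794 CPM in controls against 0.850 CPM.

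The cytosolic isocitrate dehydrogenase, *Idh1*, was at 14.0, 12.4, 12.0 and 14.8 CPM in control and at 17.6, 18.9, 17.0 and 14.7 CPM in NOX4-deficient replicates 1 to 4. In 3 of the 4 NOX4-deficient libraries it lay above every control, and NOX4-deficient replicate 4 lay just below control replicate 4. The means were 13.3 ± 1.32 CPM and 17.0 ± 1.76 CPM (SD, n = 4 each), a ratio of 1.28, the highest among the 7 genes tested. The log2 fold change was 0.36 (standard error 0.12, 95% interval 0.09 to 0.63). Its edgeR adjusted p was 0.101, from 0.0129 before adjustment. It did not pass the test, and over 17 alternatives its adjusted p lay between 0.0695 and 0.215.

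*Idh2*, the mitochondrial enzyme, was at 199.7, 205, 115 and 112 CPM in control and at 190.2, 127, 168 and 284 CPM in NOX4-deficient replicates 1 to 4. Control replicates 1 and 2 lay far above control replicates 3 and 4, and NOX4-deficient replicate 4 was the highest of all. The means were 158 ± 51.0 CPM and 193 ± 66.4 CPM (SD, n = 4 each), and the log2 fold change was 0.28 (standard error 0.27, 95% interval -0.33 to 0.90, edgeR adjusted p = 0.589). Without NOX4-deficient replicate 4 the log2 fold change was 0.05. The spread within genotypes was 32.3% of the mean in control and 34.5% in NOX4-deficient muscle, against 4.47% and 4.82% for *Me1*, which is at a similar level per kilobase.

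Oxidative slow fibers hold more mitochondria than fast fibers. The 7 slow-fiber markers looked at, *Myh7*, *Tnnc1*, *Tnni1*, *Tnnt1*, *Myl2*, *Myl3* and *Atp2a2*, summed to 388, 639, 341 and 294 CPM in control and 386, 515, 591 and 1155 CPM in NOX4-deficient replicates 1 to 4. NOX4-deficient replicate 4 was highest in the markers and in *Idh2*, and control replicates 3 and 4 were lowest in both. Other libraries went the other way. Control replicate 1 and NOX4-deficient replicate 1 had fewer of the markers than NOX4-deficient replicates 2 and 3. They had more *Idh2* (199.7 and 190.2 CPM against 127 and 168 CPM). All 7 markers had positive log2 fold changes (median 0.66), 0 had an adjusted p under 0.05 by edgeR and 0 an unadjusted p under 0.05, and *Atp2a2*, the slow calcium pump, was the most abundant at 140 ± 40.0 and 214 ± 124 CPM (SD, n = 4 each). Fast-fiber markers summed to 112253 to 135315 CPM in control and 119402 to 137357 CPM in NOX4-deficient muscle, with 0 of 6 at an adjusted or unadjusted p under 0.05. The part of fiber type in the *Idh2* values was not tested.

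**Figure D3:**
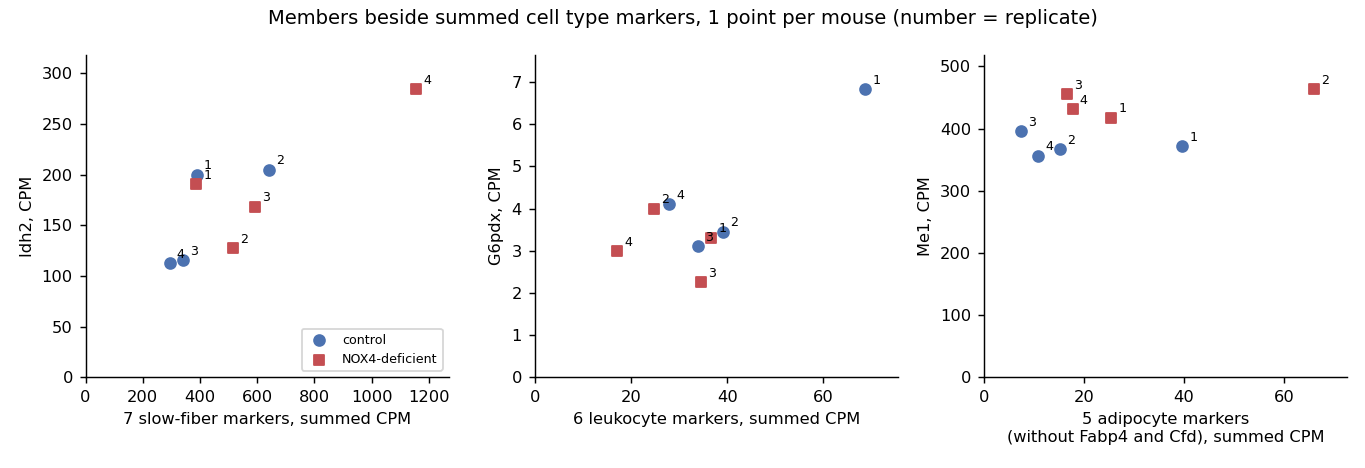
Level of *Idh2*, *G6pdx* and *Me1* (vertical axes, CPM) against the summed CPM of slow-fiber, leukocyte and adipocyte markers (horizontal axes), 1 point per mouse, control as blue circles and NOX4-deficient as red squares. NOX4-deficient replicate 4 is at the top right for *Idh2* (284 against 1155 CPM of markers) and control replicate 1 for *G6pdx* (6.83 against 68.7). Other libraries go the other way, such as NOX4-deficient replicate 2 for *Idh2* (127 against 515) and replicate 3 for *G6pdx* (2.26 against 34.6). For *Me1* the 5 markers, without *Fabp4* and *Cfd*, are lower in control replicates 2 to 4 (7.38 to 15.2 CPM) than in all NOX4-deficient libraries (16.6 to 66.1 CPM). In control replicate 1 they are at 39.6 CPM.

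The genes whose pattern over the 8 libraries lay nearest to the members were looked up by the root mean square difference of centred log2 CPM. For *Idh1*, which had the smallest p of the members, these were *Ssh1*, a cofilin phosphatase, at a distance of 0.07, *Mast3*, a kinase, at 0.08, and *Gja1*, connexin 43, also at 0.08. For *Idh2*, which had the largest spread of the members tested, they were *Il15*, a cytokine made by muscle, at 0.12, *Fndc5*, the precursor of irisin, at 0.15, and *Cux2*, a homeobox factor, also at 0.15. None of these 6 genes had an adjusted p under 0.05 by edgeR. *Il15* was at 5.45, 5.56, 3.21 and 2.44 CPM in control and 5.11, 3.59, 4.73 and 6.80 CPM in NOX4-deficient replicates 1 to 4, so it shared with *Idh2* the low values of control replicates 3 and 4.

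*Nnt*, the transhydrogenase of the inner mitochondrial membrane, uses the proton gradient to pass electrons from NADH to NADP+. Its counts were 7, 7, 6 and 1 in control and 13, 5, 10 and 6 in NOX4-deficient replicates 1 to 4, or between 0.0520 and 0.782 CPM. The groups overlapped, and it was not tested because it failed the filter on low counts. With no filter edgeR gave 0.71 on the log2 scale (standard error 0.60, adjusted p = 0.593), pydeseq2 gave 0.73 with an adjusted p of 0.590, and DESeq2 gave no adjusted p. Counts this low show neither a difference nor its absence. A second row of the same name had 0 counts in all libraries. In GENCODE M21, *Nnt* has 2 entries that overlap, and the shorter lies wholly within the exons of the longer, of which it shares 47.4%, so that the rest of the longer entry is free of this overlap. How the counter treated reads on exons of both is not given in the sources used here, and its part in the low counts was not tested. The C57BL/6J substrain is known to carry a deletion of exons of *Nnt*, and the methods of the study give the background of these mice as C57BL/6.

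Between genes, levels were compared per kilobase of the longest coding transcript. *Me1* was highest with a mean of 124 CPM per kb over the 8 libraries (108 to 141), followed by *Idh2* at 100.5 (64.4 to 163) and *Taldo1* at 45.5 (37.3 to 57.8). *Me1* and *Idh2* overlapped, with *Me1* higher in 5 of 8 libraries. *Pgd* at 6.89 (6.08 to 8.67) and *Idh1* at 6.58 (5.21 to 8.19) also overlapped, and they change places when all exons of the gene are used as its length. *Tkt* followed at 3.65 (2.78 to 4.68), *G6pdx* at 1.42 (0.852 to 2.58) and *Nnt* at 0.111 (0.0150 to 0.226) CPM per kb, each below the one before in all 8 libraries. Against 11555 coding rows tested, *Me1* lay above 97.0% in this measure, *Idh2* above 96.2% and *Taldo1* above 91.6%, while *G6pdx* lay above 27.3%.

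The 8 genes summed to 266 ± 31.1 CPM per kb in control and 310.4 ± 34.1 CPM per kb in NOX4-deficient muscle (SD over 4 mice), with ranges of 231 to 295 and 273 to 355 that overlapped. Of this sum *Me1* held 43.0% in control and 43.7% in NOX4-deficient muscle, and *Idh2* 33.5% and 34.9%. The 4 pentose phosphate genes held 21.4 ± 1.84% and 18.9 ± 2.76%, also with overlap. The mitochondrial *Idh2* was 15.9 ± 5.45 times as high as the cytosolic *Idh1* in control and 15.5 ± 7.12 times in NOX4-deficient muscle, ranging from 8.91 to 25.6 over the libraries. The ratio of *Me1* to *Pgd* was 15.2 ± 2.19 in control (12.5 to 17.4) and 21.5 ± 0.851 in NOX4-deficient muscle (20.3 to 22.4). It was singled out after its values were seen, and it joins the pair of genes whose groups do not overlap in opposite directions, so the gap follows from them.

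**Figure D4:**
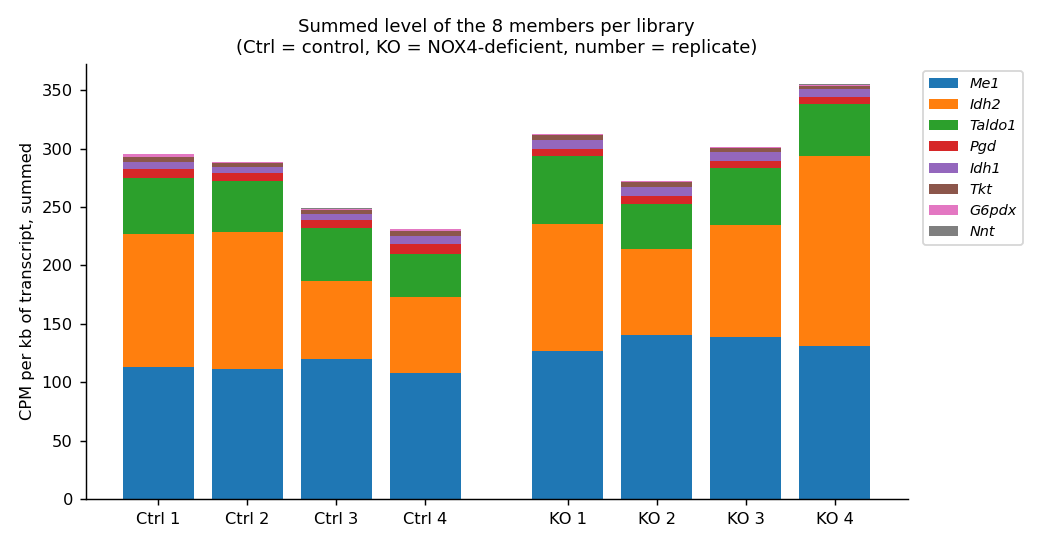
Level of the 8 genes in CPM per kb of transcript (vertical axis, from 0), stacked for each library, with 4 control libraries at the left and 4 NOX4-deficient ones at the right. *Me1* and *Idh2* make up most of each bar, the sum runs from 231 to 295 in control and 273 to 355 in NOX4-deficient muscle, and *Idh2* varies most in height.

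The enzymes around the members were read from the same fit, as lists with no test over a list. A list of 11 genes of other routes to NADPH held mitochondrial malic enzymes, folate enzymes and glutamate dehydrogenase. Not all of them make NADPH themselves (*Shmt1* and *Shmt2* do not). Among the 11, 4 log2 fold changes were negative and 7 positive, with a median of 0.07. None had an adjusted p under 0.05 by edgeR, and 2 had an unadjusted p under 0.05. *Aldh1l1*, the formyltetrahydrofolate dehydrogenase of the cytosol, had the smallest p, with 4.43 ± 1.07 CPM in controls against 6.73 ± 1.28 CPM (log2 fold change 0.60, adjusted p = 0.105).

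NADP+ itself is made by phosphorylation of NAD. Of 10 genes for the making of NAD and NADP, 9 were tested, with 4 negative and 5 positive log2 fold changes, a median of 0.05 and 0 with an adjusted p under 0.05 by edgeR, 2 at an unadjusted p under 0.05. *Nmrk1*, a nicotinamide riboside kinase, had the smallest p, at 4.41 ± 0.374 and 5.97 ± 0.962 CPM (log2 fold change 0.43, adjusted p = 0.144). Among 17 genes for the carriers and enzymes of citrate, malate and isocitrate, which supply *Me1* and the isocitrate dehydrogenases with substrate, 5 log2 fold changes were negative and 12 positive, with a median of 0.08. None had an adjusted p under 0.05 by edgeR, and 2 had an unadjusted p under 0.05. *Slc25a10*, the mitochondrial dicarboxylate carrier, had the smallest p, at 2.52, 1.39, 2.25 and 1.87 CPM in control and 3.25, 3.29, 2.58 and 3.17 CPM in NOX4-deficient replicates 1 to 4. Its groups did not overlap, by a margin of 2.52 against 2.58, and its log2 fold change was 0.62 (adjusted p = 0.125).

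Of 23 genes for enzymes that use NADPH, *Nox4* included, 10 log2 fold changes were negative and 13 positive, with a median of 0.07. By edgeR 2 of the 23 were lower at an adjusted p under 0.05 and 0 higher, where 4.62% of all rows tested were lower and 3.13% higher, so the count lay near that of all rows. *Txnrd1*, the cytosolic thioredoxin reductase, was at 143, 178, 149 and 214 CPM in control and at 76.5, 89.5, 86.1 and 93.8 CPM in NOX4-deficient replicates 1 to 4. All 4 NOX4-deficient libraries lay below all controls. The difference was -0.98 on the log2 scale (standard error 0.13, adjusted p = 0.00132). *Por*, the electron donor of cytochrome P450 enzymes, fell from 25.8 ± 0.874 to 17.9 ± 1.52 CPM (log2 fold change -0.53, standard error 0.10, adjusted p = 0.0117), also without overlap.

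Regulators known to act on the members were read from the same fit. Of 16 genes, 9 log2 fold changes were negative and 7 positive (median -0.12), with 5 lower and 1 higher at an adjusted p under 0.05 by edgeR, where 4.62% and 3.13% of all rows tested were lower and higher at this threshold. The list was chosen with earlier results of these data known, so its count cannot be weighed against those shares. The 5 lower genes belong to the antioxidant response element group. *Nfe2l2*, its activator, was at 69.5, 70.4, 71.4 and 69.9 CPM in control and 44.9, 52.7, 33.5 and 48.4 CPM in NOX4-deficient replicates 1 to 4, without overlap (log2 fold change -0.65, standard error 0.13, adjusted p = 0.0112). *Bach1*, its repressor, fell from 77.2 ± 12.0 to 34.6 ± 8.04 CPM (log2 fold change -1.16, adjusted p = 0.00211). The small MAF partners fell too, with log2 fold changes of -0.62 for *Mafg*, -0.78 for *Mafk* and -1.29 for *Maff* (adjusted p = 0.0104, 0.00346 and 0.00185).

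The 1 regulator that rose was *Srebf1*, which encodes a factor that turns on lipid synthesis genes and is known to act on *Me1* and *G6pdx* in liver. It was at 20.2, 16.3, 17.6 and 15.2 CPM in control and 35.7, 45.1, 29.4 and 25.4 CPM in NOX4-deficient replicates 1 to 4, without overlap, a log2 difference of 0.97 (standard error 0.17, adjusted p = 0.00591). Beside these regulators, the 3 members whose start windows hold the antioxidant response element letters differed in sign. The log2 fold changes were 0.25 for *Me1*, -0.47 for *G6pdx* and -0.27 for *Pgd*, where the letters may lie in an internal exon. None had an adjusted p under 0.05 by edgeR. Whether a regulator acts on a member was not tested.

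**Figure D5:**
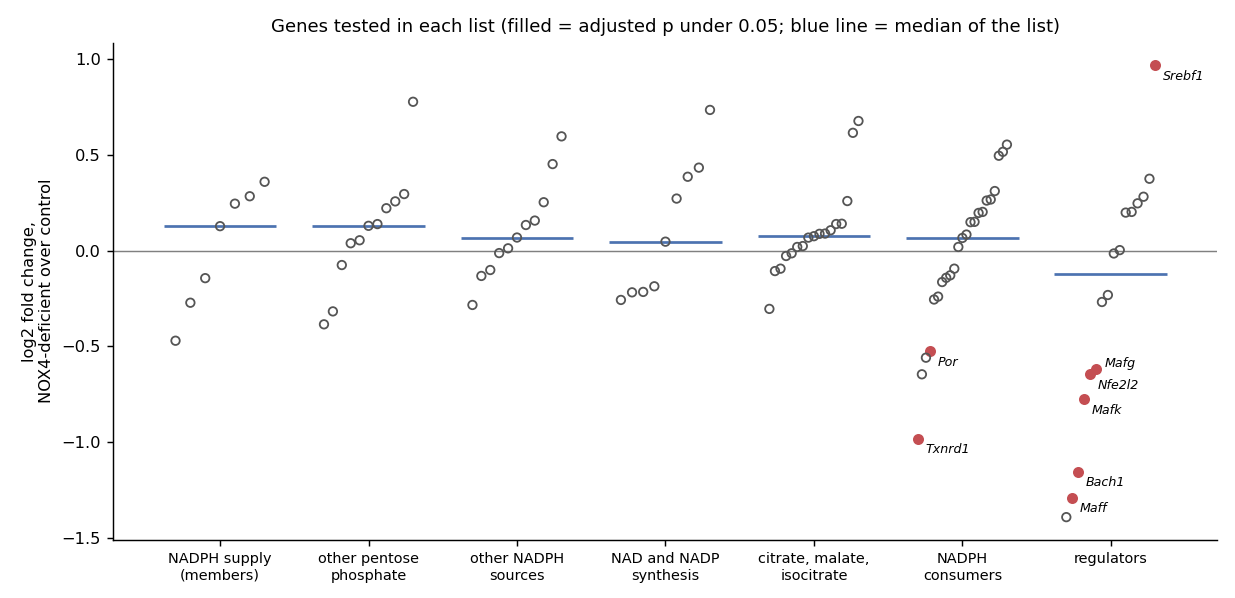
Log2 fold change of NOX4-deficient over control muscle (vertical axis) for each gene tested in the 8 members and 6 lists around them (horizontal axis), with genes at an adjusted p under 0.05 filled and named and the median of each list as a blue line. The filled points are *Txnrd1* and *Por* among consumers of NADPH, and *Maff*, *Bach1*, *Mafk*, *Nfe2l2*, *Mafg* and *Srebf1* among regulators.

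Markers of other cell types gave the following beside the members. Red blood cell genes were higher in NOX4-deficient muscle, with summed levels of 47.6 to 52.7 CPM in control and 72.3 to 159 CPM in NOX4-deficient muscle that did not overlap. *Hbb-bs* rose from 35.4 CPM (32.8 to 37.6 over the controls) to 70.9 CPM (49.7 to 106) (log2 fold change 1.00, adjusted p = 0.0153) and *Hba-a1* rose by 1.24 on the log2 scale (adjusted p = 0.00978), with 2 of the 3 markers found, of 5 listed, at an adjusted p under 0.05 and none at 0. Endothelial markers summed to 180 to 225 CPM in control and 192 to 213 CPM in NOX4-deficient muscle, fibroblast and tendon markers to 339 to 577 and 305 to 508 CPM, and nerve markers to 43.6 to 64.9 and 51.5 to 130 CPM, with 0 genes of these 3 lists at an adjusted p under 0.05 by edgeR and 4 at an unadjusted p under 0.05. Their most abundant genes were *Pecam1* (76.7 CPM on average in controls against 70.5 CPM), *Dcn* (370 and 297 CPM) and *Mbp* (24.7 and 38.8 CPM). Genes of regenerating muscle summed to 23.8 to 47.5 and 24.4 to 30.4 CPM, with a median log2 fold change of -0.24 and 2 of 4 negative. Of these *Myh3*, embryonic myosin, rose by 1.28 on the log2 scale (adjusted p = 0.00807). The myogenic factors *Myog* and *Myod1*, named after their values were seen, did not pass the test, at -1.30 (adjusted p = 0.0686) and -0.56 (adjusted p = 0.244). The part of these cells in the values of the members was not tested.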

How the data were processed

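The deposited data are raw counts of reads per gene in 8 gastrocnemius libraries, 1 column per mouse, which the authors made with nf-core from unstranded poly(A) paired-end reads. The submitters' processing notes name STAR and the GRCm39 build, while annotation and counting settings are not given in the sources used here. Of the columns, 0 were left unmatched to a sample. Of the 32390 rows, 412 repeat an earlier name and 11715 had no count. All 12 pairs of replicates differed by more than counting noise (chi-square of 12.6 to 52.1 for each degree of freedom).

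The tests used edgeR 4.0.16 in R 4.3.3 (TMM, filterByExpr, robust glmQLFit, glmQLFTest), with genotype as the only term and Benjamini-Hochberg adjustment over 12725 rows. A call needed an adjusted p under 0.05 together with a log2 fold change above 0.5 or below -0.5. Values are TMM-scaled CPM and errors are SDs over 4 mice. The fit was also run on counts simulated with known changes, which checks the method and not the results given here. Distances between patterns used log2 of CPM plus 0.1. Promoter windows are from RefSeq (GRCm38.p6) and lengths and exon overlaps from GENCODE M21 (GRCm38), so only windows are given coordinates.

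The alternatives were DESeq2's size factors, library size only, no filter, at least 10 counts in every library, a fit that was not robust, the replicate number as a block, repeated names summed, each of the 8 libraries left out, DESeq2 1.42.0 and pydeseq2 0.5.4. Replicate numbers are shared between genotypes, but the correlations of same-numbered deviations ran from 0.0410 to 0.223, so the numbers were not taken to pair mice. The genes named are the 8 members, *Nox4*, *Nfe2l2*, in each list those with an adjusted p under 0.05 (at most 6) or else the one with the smallest p, the markers with an adjusted p under 0.05 and the most abundant markers, and the 3 nearest patterns of *Idh1* and *Idh2*. *Nnt* had the largest spread within genotypes but was not tested, so *Idh2* was used there. The members and lists were chosen with earlier results of these data known.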

Additional observations from a re-analysis of the deposited data

Results flagged for a closer look

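In groups of 4 mice, 6 of 112 sets of values had their highest or lowest library far from the others (the gap to the nearest over the range of the group, above Dixon's critical value), where chance gives about 1 in 20, or 5.6. Among the members, the share of *Nnt* in the 8 genes was lowest in control replicate 4 (0.00649% against 0.0360% to 0.0410%, gap over range 0.855). Around them, *Slc25a10* was lowest in NOX4-deficient replicate 3 (2.58 against 3.17 to 3.29 CPM, 0.830). The summed adipocyte markers were highest in control replicate 1 (299 against 163 to 182 CPM, 0.862), and the summed fast-fiber markers in control replicate 3 (135315 against 112253 to 113381 CPM, 0.951). *Mbp*, a myelin gene, was highest in control replicate 4 (31.5 against 21.6 to 23.0 CPM, 0.858), and *Pecam1*, an endothelial gene, lowest in NOX4-deficient replicate 2 (57.0 against 74.5 to 75.8 CPM, 0.928).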

How the results depend on the processing

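Over 17 alternatives, 117 of 119 log2 fold changes of the 7 members tested kept their direction and their side of the threshold. The exceptions were *Me1* under DESeq2 (0.24, adjusted p = 0.0277) and pydeseq2 (0.24, adjusted p = 0.0317), which put 1 member in place of 0 under an adjusted p of 0.05. The cause was not tested. With each library left out the count of members stayed at 0, that of NADPH consumers lay between 2 and 3, that of regulators at 6, and that of the other 4 lists at 0. Genes called over all rows numbered 784, from 499 (without control replicate 4) to 712 with a library left out, 1015 under DESeq2 and 933 with the replicate number as a block. The numbers do not show a pairing, since 1 of 4 control and 1 of 4 NOX4-deficient libraries correlated best with its own number, and the block changed no call of a member. The alternatives were followed for 30 of the named genes, without *Nox4* and the nearest patterns. Of these 30 only *Lyz2* crossed the threshold with the block (-0.72, edgeR adjusted p = 0.0336). *Fabp4* turned sign without control replicate 1 (0.0020 against -0.15), from -0.23 to 0.0020 with each library left out. *Nnt* and *G6pdx* had at most 13 and 114 counts in a library, and the pooled SD of log2 CPM within genotypes was 0.48 for *Idh2* and 0.42 for *G6pdx* against 0.07 for *Me1*.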
